A study of Arabidopsis thaliana with 6 samples.

Results

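The mitochondrial genome of Arabidopsis encodes a small set of proteins of the respiratory chain, of cytochrome c maturation and of the mitochondrial ribosome, together with ribosomal and transfer RNAs and many open reading frames of unknown function. Its transcripts are spliced, edited and stabilized by proteins that are made in the cytosol, and the respiratory complexes that hold its products are assembled from subunits of both genomes. The loci described here are the rows of the count tables whose identifier starts with ATMG, the prefix of the mitochondrial genome. They were chosen by identifier alone, and there are 152 of them among 36917 rows, beside 36632 nuclear rows and 133 plastid rows.

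The libraries were made from rRNA-depleted total RNA of 6-day-old seedlings grown on sucrose-containing medium in long days. Wild-type Col-0 gave 3 libraries, and amiR1-3-mterf2 gave the other 3. The latter, called the mutant below, is 1 line in which an artificial microRNA is directed against the nuclear transcript of MTERF2, and no allele or agent is shared by both genotypes. The study places mTERF2 in chloroplasts by fractionation and fluorescence microscopy, so the mitochondrial loci address an organelle other than the one studied. It also mentions that public databases list mitochondria and plasmodesmata as further locations of the protein. Nothing in the sources says how many seedlings were pooled for a library.

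Library totals ranged from 18004935 to 21832003 counts on genes, of which 58.7 to 62.0% fell on plastid loci. MTERF2 itself had 48, 33 and 58 counts in the wild type and 32, 16 and 8 in the mutant, and its difference did not pass the test (log2 fold change -1.15, edgeR adjusted p = 0.0837), although it did without Col-0 replicate 2 (-1.29, adjusted p = 0.0264). The paper reports lower MTERF2 transcript levels in its amiR lines by quantitative RT-PCR, and a reduction in its own RNA-Seq analysis. Markers of leaf, root and seed storage tissue differed between the genotypes. Of 3 root markers, CASP1 of the endodermis fell, with 318, 372 and 394 counts against 109, 139 and 97 (log2 fold change -1.55, edgeR adjusted p = 3.27e-05), the root hair gene COBL9 fell, with 10, 176 and 12 against 0, 0 and 2 (adjusted p = 0.00782), and the aquaporin TIP2;3, with 10, 121 and 9 against 0, 0 and 4, was too low to be tested. Summed, they gave 17.5 to 35.4 CPM (counts per 1000000 counts of the library) in the wild type and 5.26 to 6.37 in the mutant. Of 2 seed storage markers, CRU3 rose (log2 fold change 3.41, adjusted p = 2.65e-06) and CRA1 did not pass (-0.075, adjusted p = 0.817), and their sum was 5.65 to 8.53 CPM against 12.4 to 15.5. Of 3 leaf markers, LHCB1.3 rose by 0.54 (log2, adjusted p = 0.00422), LHCB2.1 fell by 0.94 (adjusted p = 4.80e-05) and RBCS1A did not pass, and their sums overlapped, at 9622 to 14116 CPM against 11789 to 12193. Col-0 replicate 2 stood apart within its genotype, with the highest COBL9 and TIP2;3 counts and with 107424 counts of RBCS1A, against 43231 and 44591 in the other Col-0 libraries. The part of these markers in the differences below was not tested, and values without Col-0 replicate 2 are given beside the main results.

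The files name no gene, and the TAIR10.1 annotation at hand lists the mitochondrial genome under other locus tags. Names were taken only from annotation notes of nuclear loci that cite a mitochondrial identifier as their best match. These notes cite 53 of the 152 loci and give 24 of them a name with a function. The other 29 are cited without a function, and 99 appear in no note. All 55 nuclear loci with such a note lie on chromosome 2, where a large piece of the mitochondrial genome is known to be inserted. Of these counterparts, 46 were in the count tables, and they pair with 45 of the mitochondrial loci. The named loci of a complex are therefore not all of its mitochondrial genes. TAIR10.1 also lists, among others, nad4, nad5, nad7, nad9, cox1, cox2 and atp4, which no note ties to an identifier. Loci of these genes may be among the unnamed ones. The unnamed loci carried most of the signal. The 99 loci in no note took 95.2% of all mitochondrial counts, the 24 named loci 4.17%, and the 5 loci with the most counts 69.7%.

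Of the 152 loci, 35 had no count in any library and 73 had counts in all 6. A 0 allows up to 3 counts, which corresponds to 0.137 to 0.167 CPM depending on the library. The filter on low counts left 67 loci for testing, 16 of them named. The remaining 85 were not tested, although 50 of these had at least 1 count.

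The mitochondrial loci took a small share of the counts in both genotypes. It was 0.360, 0.432 and 0.352% of all counts for the wild type and 0.333, 0.344 and 0.347% for the mutant. The genotypes did not overlap, but the highest mutant library and the lowest Col-0 library lay close together, and Col-0 replicate 2 was far above all others. The means were 0.381 ± 0.0440% (SD, n = 3) and 0.341 ± 0.00724% (SD, n = 3) in this order, with p = 0.1 in a two-sided exact permutation test, the smallest p that 3 libraries against 3 can give. The difference of the means was -0.0401 percentage points with all libraries and -0.0148 without Col-0 replicate 2. As a share of nuclear and mitochondrial counts alone, the values were 0.872, 1.14 and 0.857% against 0.833, 0.872 and 0.859%, and these overlapped (exact permutation test, p = 0.4). These shares do not establish a lower amount of mitochondrial RNA in the mutant. In whole seedlings, a change in the number of mitochondria or cells and a change in the RNA of each cannot be told apart.

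**Figure D1:**
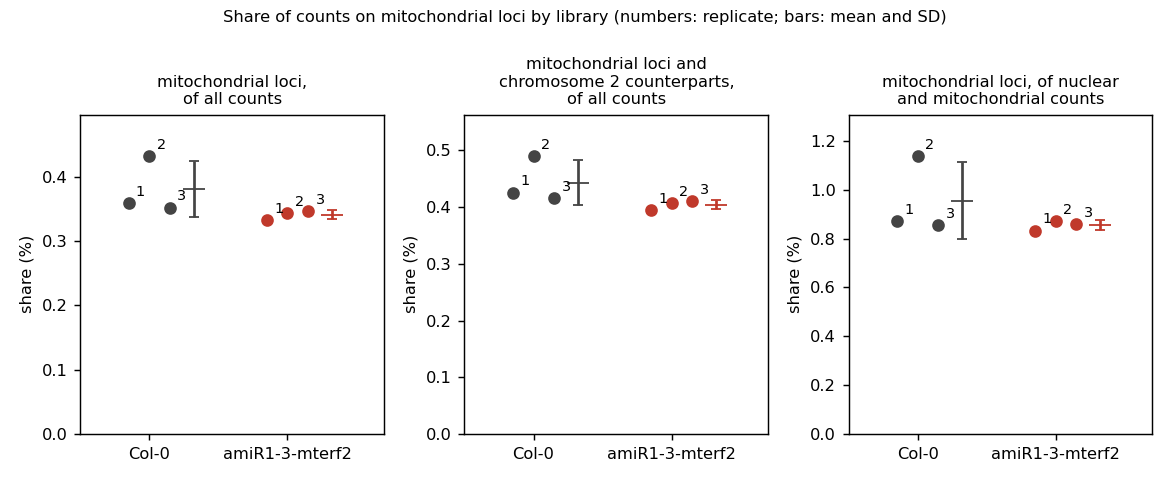
Share of counts (%) on the mitochondrial loci in each library, with replicate numbers beside the points and the mean and SD of each genotype beside them. The panels use all counts, all counts with the chromosome 2 counterparts added, and nuclear plus mitochondrial counts; Col-0 replicate 2 lies highest in each panel.

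Reads of a mitochondrial gene and of its copy on chromosome 2 cannot be told apart where the sequences are the same. In the TAIR10.1 sequence, 67.6% of all stretches of 100 bases of the mitochondrial genome also occurred in a nuclear chromosome, against 0.120% in the plastid genome. For apocytochrome b, cytochrome c oxidase subunit 3, ATPase subunit 8, F0-ATPase subunit 9 and ATP synthase subunit 1, every such stretch of the coding sequence was found within the counterpart locus. The authors' build was TAIR10, and its mitochondrial sequence was not used here.

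The counts of a pair were split very unevenly, and in a different way for each gene. The 45 pairs together held 93051 counts, 78.8% of them on the chromosome 2 locus. Among the 32 pairs with at least 100 counts in sum, 13 had over 90% of them on the counterpart, 8 had over 90% on the mitochondrial locus, and 11 lay between. Adding all counterparts raised the mitochondrial share of all counts to 0.443 ± 0.0401% (SD, n = 3) for the wild type and 0.404 ± 0.00822% (SD, n = 3) for the mutant, again with p = 0.1 in the exact permutation test. A chromosome 2 locus may also be transcribed on its own, and how the authors' counting treated reads with several matches is not given in the sources used here, so these sums are not a measure of the mitochondrial transcript alone.

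**Figure D2:**
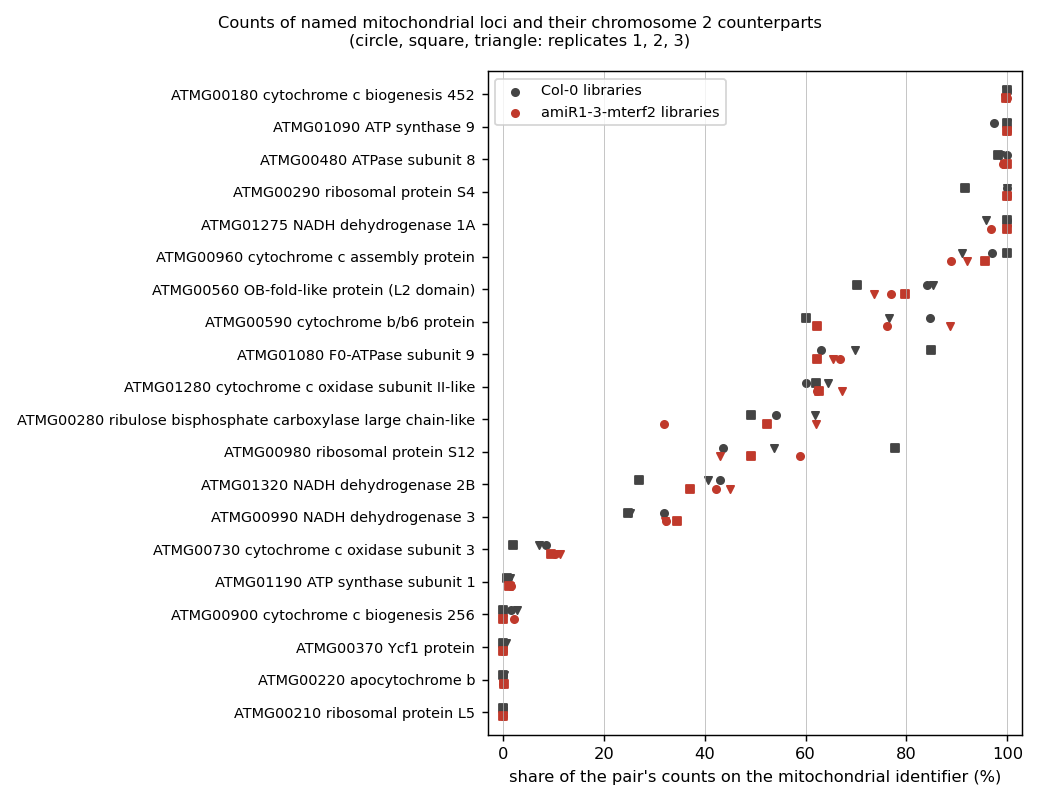
For each named mitochondrial locus whose pair held at least 100 counts, the share of the pair's counts (%) that was assigned to the mitochondrial identifier, with 1 point per library. Apocytochrome b and ATP synthase subunit 1 lie near 0%, cytochrome c biogenesis 452 and ATPase subunit 8 near 100%, and the F0-ATPase subunit 9, ribosomal protein S12 and NADH dehydrogenase 3 pairs between.

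Of the named loci, 3 belong to complex I, the entry point of electrons from NADH, and 2 of these rose in amiR1-3-mterf2. NADH dehydrogenase 3 (ATMG00990), a small membrane subunit, had 74, 23 and 54 counts in the wild type and 76, 94 and 98 in the mutant, which are 3.47, 1.25 and 2.52 CPM against 4.44, 4.58 and 5.23 CPM. All mutant libraries lay above all Col-0 libraries, and Col-0 replicate 2 was lowest. The log2 fold change was 0.96 ± 0.32 (SE) with an edgeR adjusted p of 0.0359, and without Col-0 replicate 2 it was 0.67 with an adjusted p of 0.0355. The call was lost without Col-0 replicate 3 or without any 1 of the mutant libraries, where the adjusted p lay between 0.0721 and 0.114. The counterpart held 69.0% of the counts of this pair, and the sum of both rose by 0.73 ± 0.23 (SE, log2) with an edgeR adjusted p of 0.0307.

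NADH dehydrogenase 2B (ATMG01320), a part of the gene for another membrane subunit, had 97, 36 and 94 counts in the wild type and 119, 114 and 142 in the mutant. In CPM these were 4.55, 1.96 and 4.39 against 6.95, 5.56 and 7.58, again without overlap. Its log2 fold change was 0.87 ± 0.29 (SE, edgeR adjusted p = 0.0364), and 0.58 with an adjusted p of 0.0281 without Col-0 replicate 2. Leaving out any 1 mutant library gave adjusted p values of 0.0561 to 0.129. The counterpart on chromosome 2 rose as well, by 0.67 ± 0.15 (SE, log2; edgeR adjusted p = 0.00513), and the sum of both by 0.75 ± 0.16 (adjusted p = 0.00389). This counterpart held 48.6% of the 100-base stretches of the nad2 coding sequence, so the sum does not cover the whole nuclear copy. NADH dehydrogenase 1A (ATMG01275), a part of a split gene whose mRNA is joined by trans-splicing, had 36, 34 and 46 counts against 30, 56 and 39. Its libraries overlapped, and its log2 difference of 0.21 ± 0.30 did not pass the test (edgeR adjusted p = 0.624).

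As a share of all mitochondrial counts, the 3 named complex I loci took 0.298, 0.114 and 0.281% in the wild type and 0.375, 0.352 and 0.410% in the mutant. Other complex I genes of the mitochondrial genome carry no name here, so these are not shares of the whole complex. The genotypes did not overlap, and the exact permutation test gave the smallest possible p of 0.1, or 0.45 after Benjamini-Hochberg adjustment over the 9 classes of loci compared. The difference of the means was 0.148 percentage points, and 0.0895 without Col-0 replicate 2, the lowest library. With the counterparts added the shares were 0.600, 0.282 and 0.606% against 0.771, 0.716 and 0.821%.

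Apocytochrome b (ATMG00220), the only subunit of complex III encoded in plant mitochondria, had almost no counts under its mitochondrial identifier, with 0, 2 and 6 in the wild type and 0, 8 and 2 in the mutant. Its counterpart held 3287, 2403 and 3376 counts in the wild type and 2728, 3623 and 3372 in the mutant. The mitochondrial locus thus carried 0.0957% of the pair (Wilson 95% interval 0.0606 to 0.151%, which covers counting error only). In sum the pair gave 154, 131 and 158 CPM against 159, 177 and 180 CPM. The mutant libraries were the higher ones, but the log2 difference of 0.22 ± 0.11 (SE) did not pass the test (edgeR adjusted p = 0.147), and it was 0.14 without Col-0 replicate 2.

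Cytochrome c oxidase, complex IV, passes electrons on to oxygen, and 2 of the named loci were placed in it. Its cox1 and cox2 genes, listed in TAIR10.1, were not matched to an identifier, so the complex is covered only in part. Whether the subunit II-like locus below holds a part of cox2 was not tested. Subunit 3 (ATMG00730) had 193, 46 and 144 counts in the wild type and 199, 206 and 224 in the mutant. In CPM the mutant libraries were the higher ones without overlap, at 9.05, 2.51 and 6.73 against 11.6, 10.05 and 11.95. The log2 fold change of 0.87 ± 0.33 (SE) missed the threshold (edgeR adjusted p = 0.0611), and it passed without Col-0 replicate 2, at 0.51 with an adjusted p of 0.0161. This difference was not seen in the pair. The counterpart held 2095, 2238 and 1883 counts in the wild type and 1716, 1974 and 1756 in the mutant, which was 92.0% of all counts of the pair. In sum the libraries overlapped, with a log2 difference of -0.011 ± 0.12 (edgeR adjusted p = 0.953). The share on the mitochondrial identifier was 8.44, 2.01 and 7.10% in the wild type and 10.4, 9.45 and 11.3% in the mutant. The subunit II-like locus (ATMG01280) had 155, 165 and 174 counts against 150, 203 and 207, with overlapping CPM and a log2 difference of 0.29 ± 0.15 (edgeR adjusted p = 0.172). With its counterpart added it passed when Col-0 replicate 2 was left out (0.33, adjusted p = 0.0466).

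The ATP synthase uses the proton gradient to make ATP, and none of its 4 named loci that were tested passed the test. Its atp4 gene, listed in TAIR10.1, was not matched to an identifier. Further loci of this complex may be among the unnamed ones, called or not. F0-ATPase subunit 9 (ATMG01080), which forms the membrane ring, had 461, 118 and 539 counts in the wild type and 485, 483 and 494 in the mutant. Col-0 replicate 2 was far below the other 5 libraries, which lay close together. The log2 difference was 0.55 ± 0.35 (SE, edgeR adjusted p = 0.253), and 0.16 without that library. ATPase subunit 8 (ATMG00480) had 115, 54 and 127 counts against 114, 136 and 139, and a log2 difference of 0.53 ± 0.24 (edgeR adjusted p = 0.115) with no overlap in CPM. Here too Col-0 replicate 2 was lowest, and the difference was 0.29 (adjusted p = 0.236) when it was left out.

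ATP synthase subunit 1 (ATMG01190), the alpha subunit of the catalytic head, had 53, 32 and 74 counts in the wild type and 72, 64 and 72 in the mutant. Its counterpart had 5125, 4564 and 5020 against 4741, 5865 and 4973, so that 1.20% of the pair fell on the mitochondrial identifier. In sum the pair gave 243, 250 and 238 CPM against 281, 289 and 269 CPM. The mutant libraries were all higher, by a log2 difference of 0.20 ± 0.09 (SE) that did not pass with all libraries (edgeR adjusted p = 0.124). It did pass, at 0.22, when Col-0 replicate 2 was left out (adjusted p = 0.000779). The locus that the notes call ATP synthase 9 (ATMG01090) had 74, 48 and 68 counts against 26, 44 and 61, with overlapping CPM and a log2 difference of -0.42 ± 0.31 (edgeR adjusted p = 0.323). ATPase subunit 6-1 (ATMG00410) was too low to be tested, with 2 counts in all.

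Cytochrome c maturation proteins attach haem to cytochrome c. Cytochrome c biogenesis 452 (ATMG00180) rose in amiR1-3-mterf2, and 99.8% of its pair's counts lay on the mitochondrial identifier. Its counterpart held only 40.0% of the 100-base stretches of the coding sequence, all of which occur in nuclear chromosomes of TAIR10.1. The pair thus does not cover the whole nuclear copy. ATMG00180 had 589, 310 and 563 counts in the wild type and 528, 801 and 640 in the mutant, or 27.6, 16.9 and 26.3 CPM against 30.8, 39.1 and 34.2 CPM without overlap. Its log2 fold change was 0.55 ± 0.18 (SE, edgeR adjusted p = 0.0308), and 0.37 with an adjusted p of 0.00557 without Col-0 replicate 2. The call was lost without any 1 mutant library, with adjusted p values of 0.0501 to 0.132. The cytochrome c assembly protein (ATMG00960) had 124, 70 and 61 counts against 71, 106 and 91 and overlapped (log2 difference 0.18 ± 0.27, edgeR adjusted p = 0.630). Cytochrome c biogenesis 256 (ATMG00900) had 1, 0 and 1 counts in the wild type and 1, 0 and 0 in the mutant, while its counterparts held 66, 14 and 35 against 47, 74 and 62.

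The largest difference among the named loci tested was that of ribosomal protein S4 (ATMG00290), a protein of the small subunit of the mitochondrial ribosome. It had 18, 22 and 22 counts in the wild type and 53, 81 and 41 in the mutant, or 0.844, 1.20 and 1.03 CPM against 3.09, 3.95 and 2.19 CPM. The lowest mutant library was above the highest Col-0 library, and here Col-0 replicate 2 lay with the other Col-0 libraries. The log2 fold change was 1.59 ± 0.33 (SE) with an edgeR adjusted p of 0.00349. It was 1.72 with an adjusted p of 0.000661 when Col-0 replicate 2 was left out. The call was kept under all 14 alternatives tried, with adjusted p values of 0.000451 to 0.0260. Its counterpart had 2 counts in all, so 99.2% of the pair lay on the mitochondrial identifier (Wilson 95% interval 97.0 to 99.8%), although the coding sequence occurs in full on chromosome 2 of TAIR10.1.

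The other named ribosomal proteins did not pass the test with all libraries. Ribosomal protein S12 (ATMG00980) had 52, 21 and 66 counts in the wild type and 63, 84 and 85 in the mutant. Its CPM values did not overlap, and the log2 difference of 0.87 ± 0.33 (SE) had an edgeR adjusted p of 0.0570. Leaving out Col-0 replicate 2, the lowest library, gave 0.58 with an adjusted p of 0.0817 for the locus, and 0.57 with an adjusted p of 0.0268 for the sum with its counterpart, which with all libraries did not pass (adjusted p = 0.0737). This locus is mitochondrial and distinct from the plastid gene of the same name. The locus that the notes call an OB-fold-like protein with an L2 domain (ATMG00560) had 1101, 813 and 1151 counts against 514, 1139 and 561. Mutant replicates 1 and 3 were low and replicate 2 was as high as Col-0, and the log2 difference was -0.37 ± 0.21 (edgeR adjusted p = 0.205). It passed without Col-0 replicate 2 (-0.44, adjusted p = 0.0273) and without mutant replicate 2 (-0.73, adjusted p = 0.00609). Ribosomal protein L5 (ATMG00210) had no count in any library, while its counterpart had 38, 26 and 31 against 37, 40 and 69. Ribosomal protein S7 (ATMG01270) was listed at 0 throughout, with 1 count on its counterpart.

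**Figure D3:**
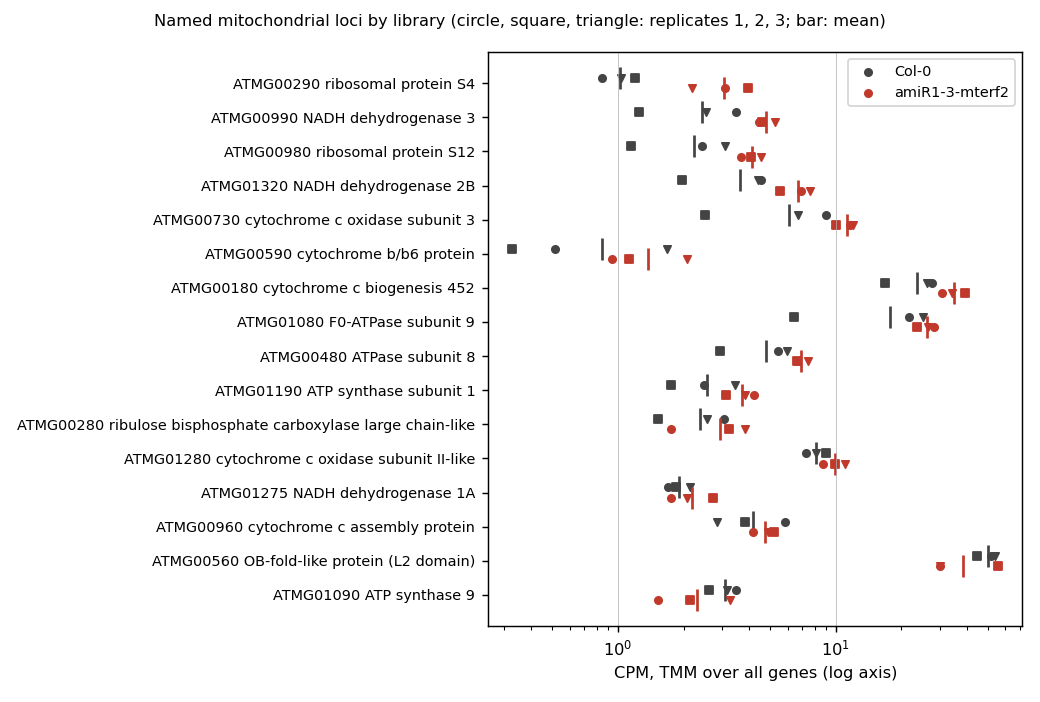
CPM (counts scaled by TMM over all genes, log axis) of the 16 named mitochondrial loci that were tested, with 1 point per library and a bar at the mean of each genotype. The Col-0 and amiR1-3-mterf2 points of ribosomal protein S4 are apart, while for most other loci the Col-0 spread is set by replicate 2, shown as a square.

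ATMG00280, a locus with similarity to the large chain of the chloroplast enzyme ribulose bisphosphate carboxylase, is the mitochondrial identifier in the study's list of loci recovered with tagged mTERF2. It had 65, 28 and 55 counts in the wild type and 30, 66 and 72 in the mutant, and its counterpart 55, 29 and 34 against 64, 60 and 44. The libraries overlapped at both loci. The log2 difference of ATMG00280 was 0.30 ± 0.35 (SE, edgeR adjusted p = 0.543), and 0.46 ± 0.23 for the sum of both (adjusted p = 0.145). When Col-0 replicate 2 was left out these were 0.075 and 0.28. Whether reads of the abundant plastid gene reach this locus was not tested. The locus that the notes call a cytochrome b/b6 protein (ATMG00590) had 11, 6 and 36 counts against 16, 23 and 39, with overlapping CPM and a log2 difference of 0.70 ± 0.59 (SE, edgeR adjusted p = 0.397), which was 0.33 without Col-0 replicate 2. The remaining 3 named loci were too low to be tested. The mitovirus RNA-dependent RNA polymerase locus (ATMG01110) had 41 counts over all libraries, the Ycf1 protein locus (ATMG00370) had 1, and the putative membrane lipoprotein locus (ATMG00610) had 0.

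Over all 67 tested loci, 11 rose and 4 fell in amiR1-3-mterf2 by the edgeR test with Benjamini-Hochberg adjustment over all 17902 genes tested. These were 16.4% and 5.97% of the tested loci, against a background of 18.1% and 18.2% of all genes tested. The share that rose was thus near the background, and the share that fell was below it. The median log2 difference was 0.15 over the 67 loci and 0.54 over the 16 named ones, beside -0.02 over all genes tested. Over the same loci it was 0.22 and 0.33 when Col-0 replicate 2 was left out. The CPM values of the genotypes did not overlap for 15 loci that were higher in the mutant and 5 that were lower, which is 22.4% and 7.46% of those tested, against 25% and 24.4% of all genes tested. The 15 called loci were all among these 20. Without Col-0 replicate 2, 16 loci rose and 5 fell of 69 tested, against a background of 22.1% and 20.8%, and the same 11 and 4 loci were among them. Scaling by total counts without TMM, which moved the median of all genes to -0.17, changed the split to 2 higher and 7 lower. Under it the calls of both complex I loci called before, cytochrome c biogenesis 452, ATMG00580 and ATMG00070 were lost. With library sizes and TMM from nuclear genes it was 12 higher and 1 lower. The share of all genes called is not given for these scalings, so their counts are not compared with a background.

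Among the 11 loci that rose, 4 were named ones, the 2 complex I loci, cytochrome c biogenesis 452 and ribosomal protein S4. This is 25% of the 16 named loci tested, against 18.1% of all genes, and it was 1 of 16 when any 1 mutant library was left out. None of the 16 fell in edgeR with all libraries, against 18.2% of all genes, none had a negative difference at an unadjusted p under 0.05, and none fell in DESeq2. The locus with the L2 domain fell without Col-0 replicate 2 and without mutant replicate 2. By position in Col-0 replicate 2 the named loci also stood out. This library was the lowest of all 6 for 10 of the 16 named loci, or 62.5%, against 22.9% of all genes tested. Over all 67 loci it was the lowest for 15 and the highest for 22.

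**Figure D4:**
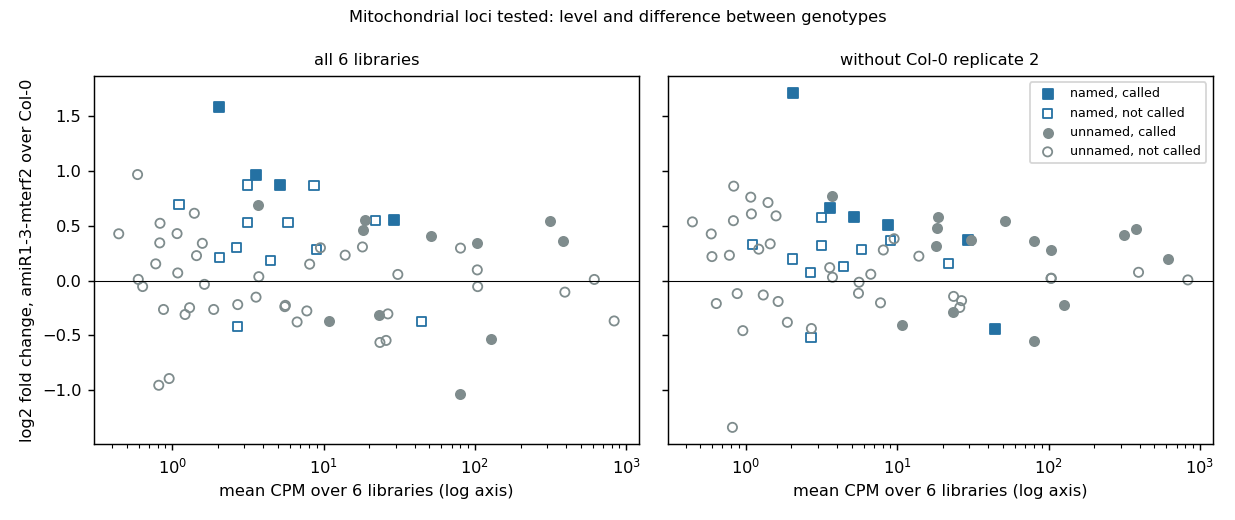
Log2 fold change of amiR1-3-mterf2 over Col-0 against the mean CPM (log axis) of each tested mitochondrial locus, with all 6 libraries and without Col-0 replicate 2. Squares are named loci and filled symbols passed the edgeR test at an adjusted p of 0.05; 11 loci rose and 4 fell with all libraries, and 16 rose and 5 fell without that library.

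The loci with the most counts carry no name in the sources used. ATMG01360 had 15070, 24988 and 15842 counts in the wild type and 12602, 15107 and 13189 in the mutant, which is 21.7, 30.6 and 23.0% of all mitochondrial counts against 21.0, 20.1 and 19.4%. Col-0 replicate 2 was far above the rest. The log2 difference was -0.37 ± 0.21 (SE, edgeR adjusted p = 0.200), and 0.0071 without that library. ATMG00160 had 11613, 13957 and 11360 counts against 10387, 12378 and 11986, with a log2 difference of 0.011 ± 0.14 (edgeR adjusted p = 0.959). That difference was 0.20 and passed (adjusted p = 0.000513) when Col-0 replicate 2 was left out. ATMG00060 had 7588, 9200 and 7775 counts against 6350, 8022 and 6988 and a log2 difference of -0.10 ± 0.13 (edgeR adjusted p = 0.583), which was 0.077 (adjusted p = 0.190) without Col-0 replicate 2.

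The other 2 of these 5 loci rose. ATMG00580 had 6248, 3747 and 5693 counts in the wild type and 6152, 7417 and 7386 in the mutant, or 293, 204 and 266 CPM against 359, 362 and 394 CPM. Its log2 fold change was 0.55 ± 0.13 (SE, edgeR adjusted p = 0.00796), and 0.41 with an adjusted p of 6.79e-07 without Col-0 replicate 2. ATMG00070 had 6630, 6942 and 6562 counts against 7280, 8784 and 7992, or 311, 378 and 307 CPM against 425, 428 and 427 CPM. Its log2 fold change was 0.36 ± 0.11 (edgeR adjusted p = 0.0228), and 0.47 with an adjusted p of 4.57e-09 without Col-0 replicate 2. The call was lost when any 1 of the other 5 libraries was left out, with adjusted p values of 0.0743 to 0.0877. The mutant libraries of both loci lay above all Col-0 libraries. With these 2 included, 7 loci in no note rose, with log2 fold changes of 0.34 to 0.69 (edgeR adjusted p = 0.00346 to 0.0437). The lowest adjusted p was that of ATMG00520, at 0.56 ± 0.12 (SE, log2), and 0.58 without Col-0 replicate 2.

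The largest fall was that of ATMG00690, with 1615, 3079 and 1663 counts in the wild type and 927, 985 and 1023 in the mutant. These were 75.7, 168 and 77.7 CPM against 54.1, 48.0 and 54.6 CPM, without overlap. The log2 fold change was -1.03 ± 0.26 (SE, edgeR adjusted p = 0.00954). Without Col-0 replicate 2, the highest library, it shrank to -0.55 with an adjusted p of 1.53e-06, and without mutant replicate 2 it was -0.97 with an adjusted p of 0.0574. ATMG01170 had 2485, 3815 and 2709 counts against 1752, 2157 and 1963, or 116.5, 208 and 127 CPM against 102, 105 and 105 CPM. Its log2 fold change was -0.53 ± 0.19 (edgeR adjusted p = 0.0462), and -0.22 with an adjusted p of 0.00493 without Col-0 replicate 2. Leaving out any 1 mutant library gave adjusted p values of 0.130 to 0.143.

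When the counts of every library were scaled to its own mitochondrial total, 3 loci were called of the 15. Ribosomal protein S4 rose by 1.596 ± 0.36 (SE, log2; edgeR adjusted p = 0.00444), ATMG00690 fell with -0.96 ± 0.21 (adjusted p = 0.00305) and ATMG01170 with -0.49 ± 0.17 (adjusted p = 0.0438). These were 1.49% higher and 2.99% lower among 67 loci, against a background of 11.7% and 14% of all genes tested in the same fit. At an unadjusted p under 0.05, 9 loci were higher and 4 lower. On this scale 6 loci rose and 10 fell without Col-0 replicate 2. No share of all genes is given for the unadjusted counts or for this last fit, so they are not compared with a background. ATMG01360 was then among those that fell, with a log2 fold change of -0.15 and an edgeR adjusted p of 0.0221.

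Adding the counts of each counterpart to its mitochondrial locus before the fit left 79 loci for testing, of which 12 rose and 4 fell, against a background of 18.2% in each direction. The 11 and 4 loci called before were all among them. For the named loci the sum left a difference of much the same size for ribosomal protein S4 (1.54), ribosomal protein S12 (0.96), NADH dehydrogenase 2B (0.75) and cytochrome c biogenesis 452 (0.56). It removed that of cytochrome c oxidase subunit 3 and lowered that of ATP synthase subunit 1 from 0.53 to 0.20.

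**Figure D5:**
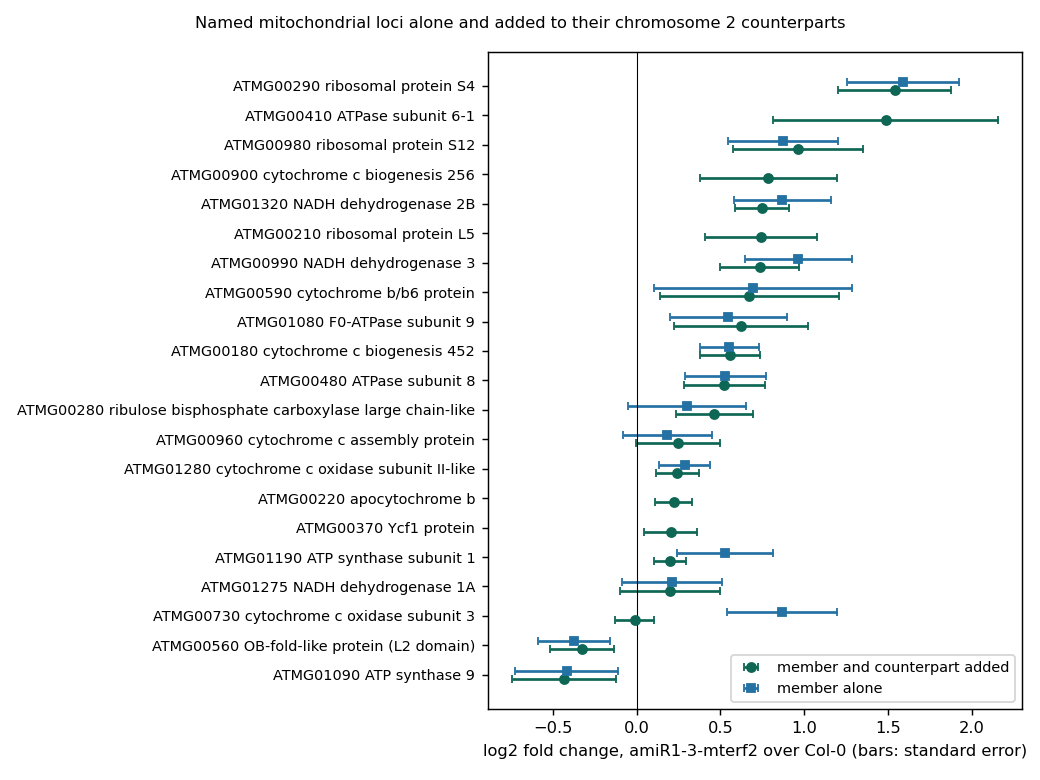
Log2 fold change of amiR1-3-mterf2 over Col-0 with its standard error for the named mitochondrial loci, alone (squares) and with the counts of the chromosome 2 counterpart added (circles). Cytochrome c oxidase subunit 3 moves from 0.87 to -0.011, and ribosomal protein S4 stays at 1.59 and 1.54.

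The nuclear genes examined beside the mitochondrial loci were splicing factors of mitochondrial introns and subunits of the respiratory complexes. Of 9 tested splicing factors, among them nMAT1, PMH2 and mTERF15, none passed the edgeR test in either direction, 1 was higher at an unadjusted p under 0.05, and none was called by DESeq2. Of all genes tested, 18.1% rose and 18.2% fell, so few calls would be expected among 9 genes. These factors were also low, from 0.293 CPM (RUG3, mutant replicate 2) to 4.79 CPM (ABO5, mutant replicate 1). Their median log2 difference was 0.17, and -0.063 without mutant replicate 1. Complexes I, III and IV and the ATP synthase hold products of both genomes. Their nuclear subunits were listed by the wording of the annotated product, so the lists need not hold every subunit. Of the 33 listed and tested, 7 fell, which is 21.2% and near the background of 18.2% of all genes, and none rose, against 18.1%. By complex these were 2 of 7 in complex I, 1 of 7 in complex III, 1 of 6 in complex IV and 3 of 13 in the ATP synthase. The count of falls was 3 without mutant replicate 2 and 4 without Col-0 replicate 1, with no share of all genes given for these fits. The median log2 difference was -0.24, and -0.098 without Col-0 replicate 2. Complex II, which is built from nuclear products alone in Arabidopsis, had 3 falls among 11 tested subunits. With it the count was 10 falls and no rise among 44, or 22.7% and again near the background. In the other direction 1 of the 44 was higher at an unadjusted p under 0.05 and none in DESeq2. AT5G08680, a gene of the ATP synthase alpha/beta family, had 37.2, 70.9 and 38.6 CPM in the wild type and 23.4, 28.9 and 23.9 CPM in the mutant. Col-0 replicate 2 was highest, and the log2 fold change of -0.94 ± 0.22 (SE, edgeR adjusted p = 0.00718) was -0.57 with an adjusted p of 6.04e-05 without it. AT5G08670 and AT5G08690, next to it in the same list, did not pass. Their log2 differences were -0.34 (edgeR adjusted p = 0.252) and -0.60 (adjusted p = 0.113). Without Col-0 replicate 2, their highest library too, these were 0.042 and -0.081.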

How the data were processed

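Groups and replicate numbers came from the sample labels. The paper describes independent biological replicates, which the labels do not tie to batches. Per the file headers the authors aligned reads with HISAT2, whereas the submitters' processing notes list Trimmomatic, FastQC, TopHat2 2.1.1 and featureCounts with TAIR10. The deposited values are raw counts per gene over exons, without normalization. Strand, reads with several matches and counts per read pair are not given in the sources used here, so overlapping genes cannot be told apart.

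Counts were tested with edgeR 4.0.16 in R 4.3.3 (quasi-likelihood test, TMM over all genes, filterByExpr with a minimum count of 10 and total of 15, threshold 0.05). SE was the log2 fold change divided by the root of F. A second fit used the mitochondrial total as library size. Shares were compared with exact permutation tests in scipy 1.17.1. DESeq2 1.42.0 was an alternative, beside other scalings, filters, a replicate block and leaving out each library. Figures used matplotlib 3.10.9. On simulated counts with 200 genes changed 4-fold, edgeR recovered 91.0% among 17626 genes with 6.67% false calls. Every called mitochondrial locus differed by less than 4-fold, and no outlying library was simulated, so this recovery does not give the power for these loci.

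The loci described are those named with a function that passed the filter, the 5 with the most counts and the 2 unnamed loci with the largest falls, in addition to ATMG00280 and the low named members of each complex. Other called unnamed loci were not described singly, apart from ATMG00520. Loci and lists were chosen with earlier results of these data known. Nuclear subunits were found by annotated product, AT5G08680 was chosen after its values were seen, and 10 of 14 splicing factors by symbol. The organellar RNA polymerases listed, RPOTm and RPOTmp, were matched to 0 rows and were not analysed here.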

Additional observations from a re-analysis of the deposited data

How the results depend on the processing

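No pairing by replicate number was used in the main fit. Same-numbered libraries deviated from their genotype means with correlations of 0.0345, 0.0211 and -0.0119. Col-0 replicates 1 and 2 correlated best with their own numbers and Col-0 replicate 3 did not. With 3 libraries per genotype such values cannot exclude a shared batch. With the replicate block 12 loci rose and 3 fell on the scale of all genes, and 6 rose and 1 fell on the scale of mitochondrial counts. On the scale of all genes, leaving out each library in turn gave 3 to 16 loci higher and 1 to 5 lower, total counts without TMM 2 and 7, and nuclear library sizes 1 lower. On the mitochondrial scale leaving out libraries gave 1 to 6 higher and 1 to 10 lower, the total without ATMG01360 gave 2 higher and 4 lower, and TMM over mitochondrial rows gave 9 lower. The nuclear subunits and splicing factors had 0 to 1 rises and 5 to 10 falls when libraries were left out. For most of these settings no share of all genes is given, so the counts are not compared with a background. The cause of these changes was not tested.

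With the counterparts added, a choice made after seeing the data, the difference in class share (percentage points) was 0.27 for complex I, 0.45 for complex III, 0.00473 for complex IV, 1.04 for the ATP synthase and -1.94 for the loci in no note, against 0.15, 0.000821, 0.18, 0.25 and -0.59 without them. The class of each complex holds only its named loci. Of the loci not called, cytochrome c oxidase subunit 3 turned to -0.011 with the counterparts added. When libraries were left out, ATMG00960 ranged from -0.026 (without Col-0 replicate 3) to 0.51, ATMG01360 from -0.53 to 0.0071 (without Col-0 replicate 2), ATMG00060 from -0.19 to 0.077 (without Col-0 replicate 2) and ATMG00160 from -0.077 to 0.20. ATMG00160 also turned to -0.021 with at least 10 counts in every library and to -0.13 with total counts. None of the called loci named in the report changed direction under the alternatives run.

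The alternatives without rRNA genes and the ratios between parts of split genes were not run, since those loci could not be identified by name. Low counts limit the named loci, of which ribosomal protein S4 had at most 81 counts in a library.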
